A study of Mus musculus with 2 samples.

Results

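The genes described here are Trp53, which encodes the transcription factor p53, and 9 genes that p53 is known to activate: Mdm2, Cdkn1a, Ccng1, Sesn1, Gdf15, Fas, Trp53inp1, Phlda3 and Ei24. They were taken by symbol, as a list drawn up with earlier results of these data known, and all 10 were found among the 23288 genes listed in each library, each with 1 RefSeq transcript. Splenic B cells came from fetal liver chimeric mice, in which blood cells derive from transplanted fetal liver, on a B6:129 background backcrossed to B6. The Nedd4+/+ and the Nedd4-/- group, which lacks a ubiquitin ligase of the HECT class, had 1 library each. Both were cultured for 72 hours with lipopolysaccharide (LPS) and interleukin 4 (IL-4), which activate B cells and drive class switch recombination to IgG1. The labels give no age or sex of the mice, no number of animals behind a library and no method of deletion. Sequencing was of total RNA after removal of ribosomal RNA, so unspliced and noncoding transcripts were sampled with messenger RNA.

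p53 is a tetrameric transcription factor that is held at a low level in unstressed cells, mainly because the ubiquitin ligase Mdm2 marks it for degradation. DNA damage and other stress stabilise p53, which then activates genes of cell cycle arrest, DNA repair, metabolic adjustment and cell death, and also Mdm2 itself, closing a negative feedback loop. Activated B cells divide fast and undergo AID-dependent DNA breaks during class switching, so the pathway has been studied in them as a guard of the genome. Control of p53 acts largely on the protein, which these RNA data do not measure.

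Gene levels were in RPKM (reads divided by transcript length and by the total mapped in that library). Depth recovered from the values was 8.40 gigabases of 101-nt reads for the Nedd4+/+ and 6.17 for the Nedd4-/- library. With 1 library per genotype there was no replicate error to set a difference against, and no p-value was computed. Intervals are exact 95% counting intervals in read pairs and cover counting error only. The log2 ratio of the Nedd4-/- to the Nedd4+/+ library was taken with 1 RPKM added to both, which understates differences of low genes, for the 9405 genes that averaged at least 1 RPKM. Its median over these genes was -0.31, so that most genes stood lower in the Nedd4-/- library as deposited. A relative log2 ratio is given below as the log2 ratio minus that median. Rescaling the listed genes to an equal total multiplied the Nedd4-/- values by 1.28, a shift of 0.36 on the log2 scale. Nedd4 itself had 7.59 RPKM in Nedd4+/+ cells and 1.95 RPKM in Nedd4-/- cells, a relative log2 ratio of -1.23. All 7 B cell markers were present, at 13.9 to 758 RPKM and at 15.6 to 650 RPKM. The libraries also differed in sex-linked RNA, with Xist at 23.7 and 0.0958 RPKM and 4 Y-linked genes at 1.18 to 5.14 against 3.95 to 18.8 RPKM. The effects of this difference and of genotype cannot be told apart in any result given here.

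The p53 gene set covered a wide range of levels in activated B cells, and no member differed 2-fold or more between the libraries. In the Nedd4+/+ library the order ran from Ccng1 at 65.4 RPKM, above 98.7% of all genes, to Gdf15 at 0.401 RPKM, above 51.6% of them. In the Nedd4-/- library the same genes stood at the ends, Ccng1 at 52.4 RPKM and Gdf15 at 0.724 RPKM. The order was otherwise Trp53inp1, Mdm2, Ei24, Trp53, Fas, Phlda3, Cdkn1a and Sesn1 in the Nedd4+/+ library, and in the Nedd4-/- library Fas and Trp53 changed places. Counting intervals of neighbours overlapped for Ei24 and Trp53, for Fas and Phlda3 and for Cdkn1a and Sesn1 in the Nedd4+/+ library. In the Nedd4-/- library they overlapped for Ei24 and Fas and for Fas and Trp53. Of the 10 genes 9 reached the minimum of 1 RPKM, and Gdf15 did not. The 9 had a median relative log2 ratio of 0.02, 5 of them on the upper and 4 on the lower side of all genes. As deposited, 7 of the 9 were lower in the Nedd4-/- library and 2 were higher, Cdkn1a and Fas. The median of the 9 was -0.30, and 7.32% of all genes tested were higher. None of the 9 passed a 2-fold difference, either as deposited or after subtracting the median, where 1.29% and 0.500% of all genes tested did.

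**Figure D1:**
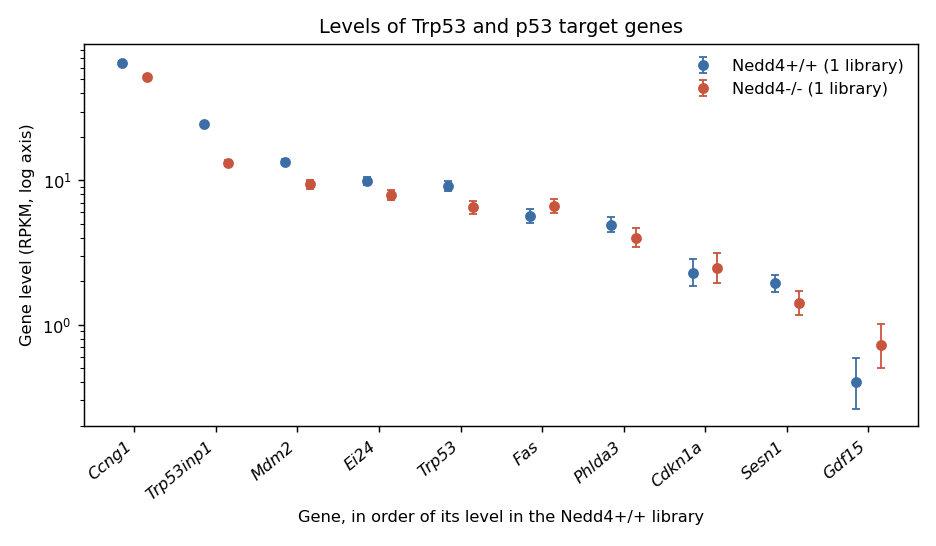
Level of each gene in RPKM on a log axis, in the Nedd4+/+ library (blue) and the Nedd4-/- library (red), 1 library each, with bars for the exact 95% counting interval, some of which are smaller than the point. Ccng1 is highest at 65.4 and 52.4 RPKM and Gdf15 lowest at 0.401 and 0.724 RPKM, and Fas, Cdkn1a and Gdf15 are the genes whose red point lies above the blue one.

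Trp53 and its inhibitor were expressed at moderate levels and differed between the libraries about as much as other genes. Trp53 had 9.17 RPKM in Nedd4+/+ cells (interval 8.49 to 9.89) and 6.50 RPKM in Nedd4-/- cells (5.83 to 7.21). These intervals did not overlap. The ratio with nothing added was 0.708, with an interval of 0.621 to 0.807 that held the median ratio of all genes, 0.764. The relative log2 ratio of Trp53 was -0.13, and 27.2% of all genes tested had a lower one. Mdm2, the ubiquitin ligase that binds and degrades p53 and is its target, was at 13.5 and 9.39 RPKM. Its ratio of 0.696 had an interval of 0.641 to 0.755, just under the median of all genes, and its relative log2 ratio was -0.17. Within each library Mdm2 stood in nearly the same proportion to Trp53, 1.47 times its level in the Nedd4+/+ and 1.45 times in the Nedd4-/- library. That proportion does not depend on how the libraries were scaled to each other.

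The targets that act on the cell cycle were Cdkn1a and Ccng1. Cdkn1a encodes p21, the inhibitor of cyclin-dependent kinases through which p53 arrests the cell cycle. Nedd4+/+ cells had 2.30 RPKM of it and Nedd4-/- cells 2.49 RPKM, from 88.1 and 70.0 read pairs. The intervals of 1.84 to 2.83 and 1.94 to 3.14 RPKM overlapped widely, and the ratio of 1.08 had an interval of 0.780 to 1.499. Equal RPKM thus lay inside the interval, and the median of all genes, 0.764, lay just below it. The relative log2 ratio was 0.39, and 96.0% of all genes tested had a lower ratio. Among 1165 genes within 1.2-fold of its mean level the median log2 ratio was -0.25, against 0.08 for Cdkn1a. Of these, 4.89% showed a larger difference upward in RPKM. Relative to Trp53 in the same library, Cdkn1a stood at 0.251 and 0.383 times its level. Ccng1 encodes cyclin G1, which recruits the phosphatase PP2A to Mdm2, and its 65.4 and 52.4 RPKM rested on 9556 and 5619 read pairs. Its ratio of 0.801 (interval 0.775 to 0.828) was slightly above the median of all genes. With 1 RPKM added its relative log2 ratio was -0.00188, so that its side of the median depended on the scale.

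The promoters of these cell cycle genes are shown because they alone among the members with a promoter in the table used held a full p53 element in the bases searched. The element sought was a pair of p53 consensus decamers end to end, 20 bases with at most 1 mismatch. It reads as the same consensus on both strands. The 300 bases searched ran from 250 before to 50 after each RefSeq start (build GRCm38.p6, not the build mm9 of the RNA values). Of 32851 such promoters 22 held it, or 0.0670%. Of the members 9 had a promoter in the table, all but Trp53inp1. The Cdkn1a match lies before the start of the upstream of its annotated transcripts, NM_001111099, which is the transcript the deposited values list. The stretches below run from 250 to 11 bases before the start, 5′ to 3′ on the gene's strand, with the element in capitals.
Cdkn1a, chr17:29090729-29090968, + strand: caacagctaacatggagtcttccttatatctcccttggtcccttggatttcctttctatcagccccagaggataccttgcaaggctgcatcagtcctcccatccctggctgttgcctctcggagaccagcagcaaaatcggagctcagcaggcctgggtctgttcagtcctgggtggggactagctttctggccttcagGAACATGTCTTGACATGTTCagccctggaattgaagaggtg
Ccng1, chr11:40755297-40755536, - strand: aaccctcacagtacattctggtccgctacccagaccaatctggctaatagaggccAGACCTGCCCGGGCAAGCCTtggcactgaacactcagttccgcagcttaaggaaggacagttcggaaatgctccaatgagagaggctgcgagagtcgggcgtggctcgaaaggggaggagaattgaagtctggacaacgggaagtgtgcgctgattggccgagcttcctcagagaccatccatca
The element begins 51 bases before the start in Cdkn1a and 195 bases before it in Ccng1. A second Cdkn1a start, 2790 bases from the first, was also searched and had no match. The genes with the element thus include the member with the highest level and one of the lowest. Among the other p53 targets listed here, Rps27l, which encodes a ribosomal protein-like factor, also held it, at 115 and 94.0 RPKM (relative log2 ratio 0.03).

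Single decamers with no mismatch were more common. They occurred in 8.36% of all 32851 promoters, in 2582 of 27025 genes (9.55%) and in 6 of the 9 members with a promoter (66.7%). Besides Cdkn1a and Ccng1 these were Mdm2, Trp53, Sesn1 and Ei24, shown with 10 bases on either side and the decamer in capitals.
Mdm2, chr10:117710925-117710954, - strand: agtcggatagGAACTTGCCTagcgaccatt
Trp53, chr11:69580274-69580303, + strand: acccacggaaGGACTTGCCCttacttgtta
Sesn1, chr10:41887256-41887285, + strand: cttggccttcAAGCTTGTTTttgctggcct
Ei24, chr9:36797325-36797354, - strand: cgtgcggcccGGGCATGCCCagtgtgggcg
A match of letters is a description and says nothing of binding in these cells. Members with a decamer were found on both sides of the median of all genes, from Mdm2 at -0.17 to Cdkn1a at 0.39. Fas, Gdf15 and Phlda3 had none in this window, nor did the second start searched for Sesn1 and for Cdkn1a. The last bases of the Phlda3 window, gaacatgt, fit the beginning of a decamer, and bases past its edge were not searched. Of 34 other targets with a promoter 8 held a decamer (23.5%), of 31 regulators of p53 2 did (6.45%), and of 16 genes that p53 lowers through p21 3 did.

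The member furthest below other genes was Trp53inp1, which encodes a stress-induced nuclear protein that promotes p53 activity and autophagy. Its level was 24.8 RPKM in Nedd4+/+ cells and 13.2 RPKM in Nedd4-/- cells, from 5565 and 2181 read pairs. The counting intervals, 24.1 to 25.4 and 12.7 to 13.8 RPKM, were far apart. The ratio was 0.534 (interval 0.508 to 0.561), the log2 ratio -0.86 and the relative log2 ratio -0.54, and 2.56% of all genes tested had a lower ratio. This difference exceeded counting error, while the error between cultures is unknown. Relative to Trp53 it stood at 2.70 times its level in the Nedd4+/+ and 2.04 times in the Nedd4-/- library.

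The targets of metabolic control and signalling lay close to the median. Sesn1 encodes sestrin 1, which restrains the growth kinase complex mTORC1, and stood at 1.94 and 1.42 RPKM. Its ratio of 0.732 had an interval of 0.577 to 0.925, which held the median of all genes. Its relative log2 ratio was 0.03, while with nothing added it lay slightly below that median. Phlda3, an inhibitor of the kinase Akt, stood at 4.94 and 4.005 RPKM, with a ratio of 0.811 (0.669 to 0.981) and a relative log2 ratio of 0.07. Ei24, an endoplasmic reticulum protein with a role in autophagy, stood at 9.94 and 7.91 RPKM, with a ratio of 0.796 (0.715 to 0.884) and a relative log2 ratio of 0.02. The intervals of all of these held the median ratio of all genes, and the intervals themselves allow differences from it in either direction.

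Fas and Gdf15 were the members furthest above other genes. Fas, the death receptor through which activated lymphocytes are removed, had 5.68 RPKM in Nedd4+/+ cells (5.10 to 6.31) and 6.66 RPKM in Nedd4-/- cells (5.93 to 7.46). The intervals overlapped as levels, and the ratio of 1.17 had an interval of 1.003 to 1.37. Its relative log2 ratio was 0.51, above 98.2% of all genes tested. Among 1304 genes within 1.2-fold of its mean level the median log2 ratio was -0.35, against 0.20 for Fas, and 1.30% showed a larger difference upward in RPKM. Gdf15 encodes a secreted stress cytokine of the TGF-beta superfamily, and its 0.401 and 0.724 RPKM came from 25.7 and 34.2 read pairs. The intervals, 0.261 to 0.588 and 0.502 to 1.01 RPKM, overlapped. The ratio was 1.81 (1.052 to 3.14), and the gene lay below the minimum level for the comparison.

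Low levels were higher in the Nedd4-/- library in general, though less often near the level of Gdf15. Of 10801 genes with a mean between 0.05 and 0.4 RPKM, 91.0% were higher there, with medians of 0.118 and 0.246 RPKM. Gdf15 lay above that range. Of 1805 genes with a mean between 0.4 and 0.8 RPKM, 60.5% were higher, with medians of 0.519 and 0.584 RPKM. Among 912 genes within 1.2-fold of the mean level of Gdf15 the median difference was 0.0514 RPKM and 12.3% had a larger one than its 0.324 RPKM. Most markers of other cells were also higher there at such levels. The 5 T cell markers listed ranged from 0.0443 to 0.166 RPKM and from 0.132 to 0.371 RPKM in Nedd4+/+ and Nedd4-/- cells, with sums of 0.503 and 1.33 RPKM. The 5 myeloid markers summed to 1.54 and 2.83 RPKM, though Itgam among them was lower at 0.411 and 0.367 RPKM, the 3 markers of natural killer cells to 0.209 and 0.496 RPKM, and the 4 stromal or endothelial markers to 0.584 and 1.12 RPKM. None of these markers was at 0, and none of the T cell, natural killer or stromal markers reached 0.5 RPKM in a library. Of the erythroid markers, Hba-a1 was lower in the Nedd4-/- library, at 1.74 and 0.897 RPKM, as was Hba-a2, at 1.72 and 0.891 RPKM, while Alas2 was at 0.909 and 1.01 RPKM. Their part in the levels of Fas, Cdkn1a and Gdf15 was not tested, and fewer cells of a type and less RNA per cell cannot be told apart in bulk RNA.

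**Figure D2:**
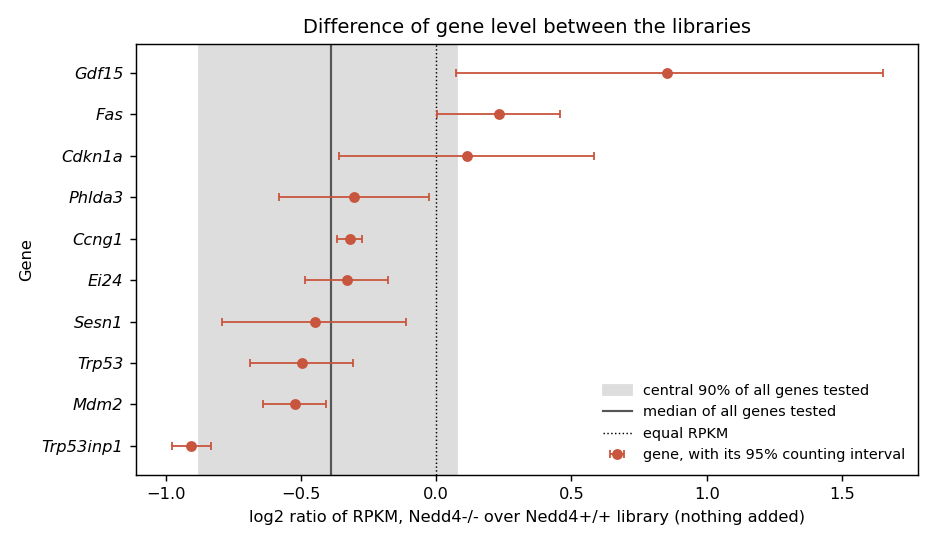
Log2 ratio of RPKM with nothing added, Nedd4-/- over Nedd4+/+ library, for each gene with its exact 95% counting interval. The grey band holds the central 90% and the grey line the median (-0.39) of all 9405 genes tested. Trp53inp1 lies left of the band while Cdkn1a, Fas and Gdf15 lie right of it. Gdf15, below the minimum level, is not among the genes tested, so the band does not describe genes of its level.

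The kb upstream of each gene was also measured, and 9 of the 10 members had a higher upstream level in the Nedd4-/- library. The upstream level is in RPKM, and 1 read pair in the window is worth 0.0241 RPKM (Nedd4+/+) or 0.0328 RPKM (Nedd4-/-). The direction was common: among the 11837 windows averaging at least 0.2 RPKM, 71.2% were higher in the Nedd4-/- library, with a median log2 ratio of 0.41 (0.1 RPKM added). All 10 members passed this minimum, but 5 of them, Mdm2, Cdkn1a, Gdf15, Fas and Phlda3, were under 0.2 RPKM in the Nedd4+/+ library and passed only through their Nedd4-/- value. The minimum thus favours windows that are higher there, and the counts that follow are a description. Fas and Gdf15, both among these 5, were at least 2-fold higher, 2 of 10 members where 19.8% of all windows were. Against the median window, 7 members were above and 3 below, 2 of them 2-fold higher and 1, Ei24, 2-fold lower. Of all windows 6.50% and 5.68% were so.

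The upstream windows held few reads at most members. That of Fas went from 0.0548 to 0.352 RPKM, from 2.28 and 10.7 read pairs, a ratio of 6.43 with a counting interval of 1.49 to 49.7. That of Gdf15 went from 0.0911 to 0.461 RPKM, a ratio of 5.06 (1.56 to 22.1). In the GRCm38 annotation 307 bases of the Gdf15 window are exons of other Gdf15 transcripts, so reads of the window and of the gene cannot be told apart there. Both windows passed the minimum only through the Nedd4-/- library.

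Cdkn1a had 0.192 and 0.371 RPKM upstream, from 8 and 11.3 read pairs, with a ratio of 1.93 (0.713 to 5.49). Ccng1 had 0.343 and 0.558 RPKM and Mdm2 0.121 and 0.325 RPKM, with ratios of 1.63 (0.758 to 3.55) and 2.67 (0.833 to 9.92). As placed in GRCm38, the windows of Cdkn1a and Ccng1 hold the full p53 elements printed above. For these 3 genes a difference in upstream level was not detectable at this depth.

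The upstream window of Trp53 lies over the start of Wrap53, a gene of the opposite strand, whose exons cover 170 bases of it in GRCm38. It had 0.321 and 0.555 RPKM, a ratio of 1.73 (0.795 to 3.85). Wrap53 itself was at 4.33 and 3.82 RPKM, a relative log2 ratio of 0.17 against -0.13 for Trp53. The strand setting of the counting is not given in the sources used here, so reads of the pair cannot be told apart in the window.

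Trp53inp1 and Ei24 had the highest upstream levels and went in opposite directions, though the counting intervals of both ratios held equal levels. The Trp53inp1 window stood at 0.889 and 1.27 RPKM, a ratio of 1.43 (0.888 to 2.31), although the level of the gene was lower in the Nedd4-/- library. The Ei24 window stood at 0.903 and 0.568 RPKM, a ratio of 0.628 (0.334 to 1.14), and was the member window that was lower. In GRCm38 120 bases of it are exons of other Ei24 transcripts. Sesn1, at 0.241 and 0.312 RPKM, and Phlda3, at 0.198 and 0.277 RPKM, had ratios of 1.30 and 1.40 with intervals from under 0.5 to over 3. In GRCm38 the Sesn1 window lies inside the annotated gene, over 0 exon bases, so unspliced Sesn1 reads cannot be told apart there.

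**Figure D3:**
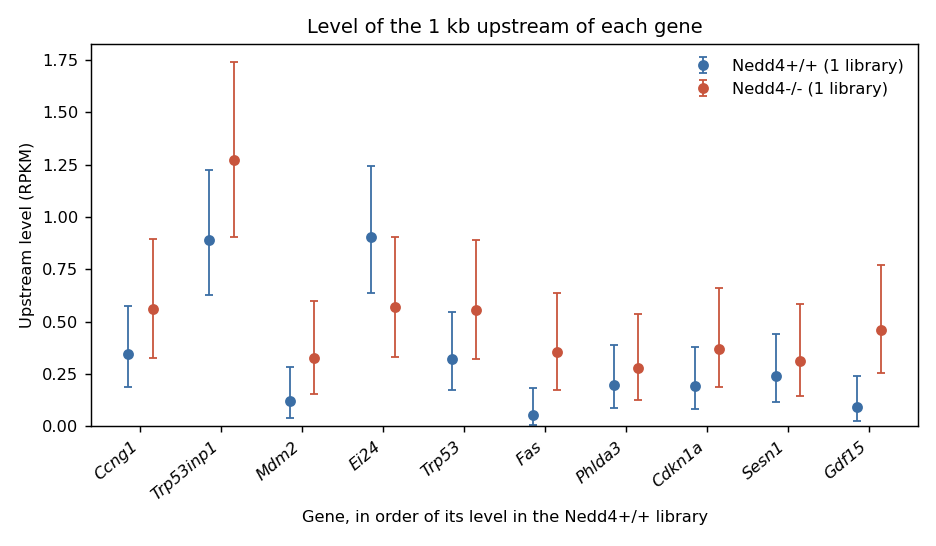
Level of the 1 kb upstream of each gene in RPKM, in the Nedd4+/+ library (blue) and the Nedd4-/- library (red), 1 library each, with bars for the exact 95% counting interval and genes in the order of their own level. The red point lies above the blue one at 9 genes and below it at Ei24, and the bars of all but Gdf15 overlap.

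None of the other p53 targets passed 2-fold, where 1.29% of all genes tested did as deposited and 0.500% relative to the median. The side of the median gene on which these targets lay depended on the minimum level. Of 44 such genes listed 37 reached 1 RPKM. The relative log2 ratio was above 0 for 26 of these and below 0 for 11, with a median relative log2 ratio of 0.12 and a range from -0.44 to 0.59. With no minimum level 10 of 44 were above and 34 below the median gene, which then lay at 0.02, and their relative median was -0.20. With a minimum of 5 RPKM it was 0.05 over 14 genes. As deposited, 5 of the 37 were higher and 32 lower in the Nedd4-/- library, where 7.32% of all genes tested were higher. The highest were Plk3, a stress-responsive kinase, at 1.87 and 2.47 RPKM (relative log2 ratio 0.59), Pmaip1, which encodes the death-promoting BH3-only protein Noxa, at 6.22 and 7.31 RPKM (0.52), and Tnfrsf10b, a receptor of the death ligand TRAIL, at 1.93 and 2.25 RPKM (0.46). The lowest were Trp53i11 at 19.1 and 10.9 RPKM (-0.44), Sesn2, a sestrin like Sesn1, at 10.2 and 5.80 RPKM (-0.40), and Tap1, a peptide transporter of antigen presentation, at 47.8 and 30.5 RPKM (-0.32).

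Regulators of p53 were spread evenly about the median. Of 35 listed genes 30 were tested, 16 above and 14 below it, with a median relative log2 ratio of 0.01 and none past 2-fold. Of all genes tested 1.29% passed 2-fold as deposited and 0.500% relative to the median. Atm, the kinase that signals DNA breaks to p53, was at 16.9 and 16.3 RPKM (0.27), Rfwd2, the ubiquitin ligase also called Cop1, at 2.71 and 2.59 RPKM (0.26), and Trp53bp2, a p53-binding cofactor, at 1.32 and 1.11 RPKM (0.18). At the other end were the kinase gene Hipk1 at 11.9 and 7.81 RPKM (-0.24), the Mdm2-binding chaperone gene Daxx at 7.26 and 4.75 RPKM (-0.21) and Rpl11, a ribosomal protein that restrains Mdm2, at 21.6 and 15.2 RPKM (-0.17).

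Genes that p53 lowers through p21 and the DREAM complex, which represses genes of cell division, were spread evenly as well. All 20 were tested, 10 on each side of the median gene, with a median relative log2 ratio of -0.01. Ccnb1, the mitotic cyclin B1, was at 14.2 and 13.5 RPKM (0.25), Mybl2, an activator of cell cycle genes, at 7.24 and 6.38 RPKM (0.15) and Foxm1, a factor of mitotic genes, at 2.89 and 2.41 RPKM (0.12). The lowest were the mitotic kinase genes Aurkb at 23.0 and 14.9 RPKM (-0.28) and Plk1 at 8.44 and 5.36 RPKM (-0.26) and the topoisomerase gene Top2a at 121 and 84.4 RPKM (-0.20). Neither end of this list passed 2-fold, where 1.29% of all genes tested did as deposited and 0.500% relative to the median.

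**Figure D4:**
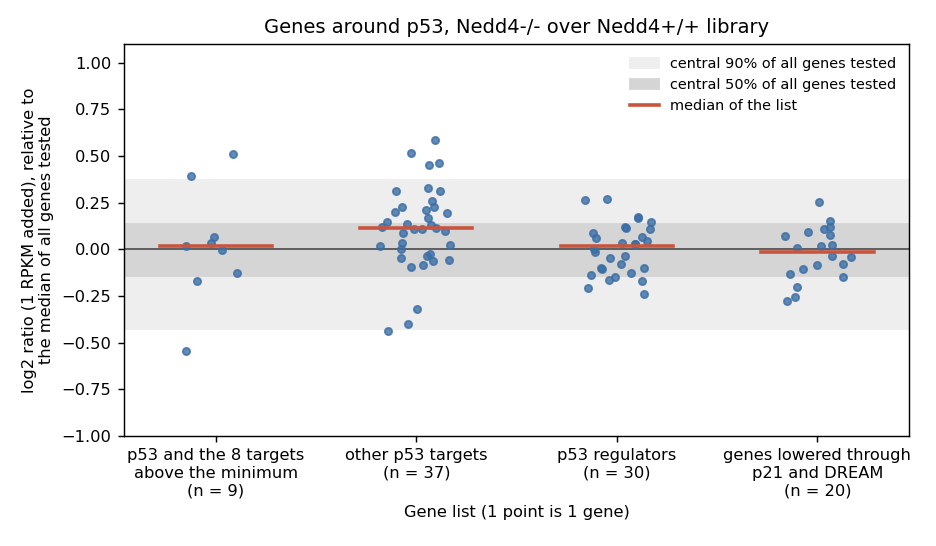
Relative log2 ratio (1 RPKM added) of each tested gene in 4 lists, 1 point per gene, with the median of each list in red and the central 90% and 50% of all genes tested in grey. Medians are 0.02, 0.12, 0.01 and -0.01 from left to right, and among the first list Fas and Cdkn1a lie above the wider band and Trp53inp1 below it.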

How the data were processed

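Gene levels were deposited in RPKM, per the file headers, with 1 RefSeq transcript per gene. Per the submitters' processing notes, TopHat, Cufflinks and mm9 were used. For each, role and settings were not given in the sources used here. The second deposited column is a ratio, as its values show: multiplied by the gene's RPKM plus 0.0001, low windows gave whole read bases in 1000 nt (within 0.05 bases) for 99.99% of 20382 and 100% of 21637 windows. That product is the upstream level. Read pairs of 202 nt were recovered from the same steps, with transcript lengths from GENCODE M21 (GRCm38), which may differ slightly from the lengths the authors used. Ratio intervals are Clopper-Pearson and level intervals Poisson.

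Named are the 10 members, and the 3 highest and 3 lowest log2 ratios of each other list. Nedd4 was named as the deleted gene, and Wrap53, Rps27l and the sex-linked genes after their values were seen. The members and lists were chosen with earlier results of these data known. Python 3.11.15 and scipy 1.17.1 were used, and scripts were tested on simulated data. 1 marker gene is not reported here.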

Additional observations from a re-analysis of the deposited data

How the results depend on the processing

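No member or list gene passed 2-fold under any gene-level alternative (0.1 RPKM added, no minimum, a minimum of 5 RPKM, equal totals). Few genes did in the main setting, 1.29% of all tested as deposited, and no share over all genes was computed under the alternatives. With equal totals the medians as deposited became 0.0283 for the members and 0.0745 for the other targets. They became -0.00211 for the regulators and -0.00396 for the genes lowered through p21. Higher in the Nedd4-/- library were then 5 of 9 members and 26 of 37 other targets. So were 15 of 30 regulators and 9 of 20 genes lowered through p21. The share of all genes higher with equal totals was not computed, so these counts are not a result about the lists. The rescaling shifted log2 ratios up by 0.36, where the median of all genes as deposited was -0.31. Without a minimum level the median relative log2 ratio of the members became -0.31 and that of the other targets -0.20, as the median of all genes moved from -0.31 to 0.02; for the other targets this was computed after seeing the data. Over the gene-level alternatives Fas stayed between 0.18 and 0.61, Cdkn1a between 0.06 and 0.49, Mdm2 between -0.50 and -0.10 and Trp53inp1 between -0.88 and -0.48. The number of member windows at least 2-fold apart was 0 with a minimum of 1 RPKM, as only Trp53inp1 remained. It was 6 with the deposited ratio to the gene level. No share over all windows was computed for that ratio. In the Nedd4-/- library most windows were higher and most tested genes lower, so the 6 is not a result about the members. No paired analysis was possible because each genotype had 1 library. Depth limits the upstream windows most, where members had between 2.28 and 38.8 read pairs.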
